A study of Mus musculus with 6 samples.

Results

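The late erythroid globin and membrane genes were taken as the 6 genes of the deposited table whose name is Hba-a1, Hba-a2, Hbb-bs, Hbb-bt, Alas2 or Slc4a1, out of 55487 genes in all. RNA-seq had been carried out on LSKs, the Lin- Sca-1+ c-Kit+ fraction of mouse bone marrow that holds hematopoietic stem and progenitor cells, after total body irradiation (IR) of the mice. There were 3 libraries from Tespa1+/+ mice, described in the labels as wild type littermates, and 3 from Tespa1-/- mice, which carry a germline Tespa1 null allele (Tespa1 tm1Smoc) on a C57BL/6 background. The comparison asks how the loss of Tespa1 alters LSK transcripts after IR, and an unirradiated group was not analysed here. All groups shared the irradiation, and the study worked with young adult males. Since the allele is carried in every tissue, changes that arise in LSKs and changes that arise elsewhere in the animal cannot be told apart. The sources do not say if each replicate is a single mouse or pooled mice, so the p-values measure the spread between these libraries, which may be technical.

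Hemoglobin is built from alpha and beta chains around heme, and its genes are switched on late in red cell maturation under GATA1 and KLF1. Mice carry a pair of adult alpha genes (Hba-a1, Hba-a2) and a pair of adult beta genes (Hbb-bs, Hbb-bt) that are nearly identical in sequence. Alas2 encodes the erythroid form of the enzyme that starts heme synthesis, and Slc4a1 encodes band 3, the anion exchanger that anchors the red cell membrane to its skeleton. LSKs lie upstream of this program, and the lineage staining described for the study includes Ter-119, an antigen of maturing red cells, among the antibodies whose positive cells are left out.

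The copies of each globin pair differed at 1 coding base only, which is why the counts of single copies have to be read with care. Hba-a1 and Hba-a2 shared 99.8% of 429 coding bases and differed by C381T, with Hba-a1 named first and positions counted from 1 at the first base of the start codon. Hbb-bs and Hbb-bt shared 99.8% of 444 coding bases and differed by C417T, with Hbb-bs first. The last 90 coding bases of the GENCODE M21 transcripts are shown 5′ to 3′ with that base in capitals.
Hba-a1: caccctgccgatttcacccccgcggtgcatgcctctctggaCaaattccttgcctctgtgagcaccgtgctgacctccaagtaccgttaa
Hba-a2: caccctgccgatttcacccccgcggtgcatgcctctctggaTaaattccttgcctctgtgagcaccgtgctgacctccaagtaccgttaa
Hbb-bs: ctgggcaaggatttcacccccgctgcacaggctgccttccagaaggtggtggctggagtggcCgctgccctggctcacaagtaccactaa
Hbb-bt: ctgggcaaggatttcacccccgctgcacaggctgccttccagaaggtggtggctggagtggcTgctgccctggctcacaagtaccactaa

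Outside the coding bases the copies diverge more. Of all 100-base windows of the annotated transcript, 56.5% of those of Hba-a1 and 74.5% of those of Hba-a2 also occurred in the partner copy. The shares were 62.6% for Hbb-bs and 54.8% for Hbb-bt. How the counting treated reads that match both copies is not given in the sources used here, so every value of a single globin copy is uncertain, and the sums of each pair are given beside them.

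Upstream sequence was examined as a description of the genes. RefSeq (GRCm38.p6) gave 250 bases upstream of the start of 5 of the 6 genes, all but Slc4a1. For each of these 5 genes the RefSeq start lies inside the gene interval given below, so the bases upstream of it overlap that interval. Motifs were searched on both strands by their letters. The motif of the GATA factors was the run GATA with an A or a T directly before it and an A or a G directly after it. The motif of the KLF factors was searched as CACCC, and that of the NF-Y factor as CCAAT. For the TATA box, the run searched was TATAAA, with a C also allowed in place of its first letter. No match of one motif was allowed to hide a match of another. The last 140 upstream bases are shown on the strand of the gene, with matches in capitals. These bases lie at chr11:32296352-32296491 (+) for Hba-a2, chr7:103827929-103828068 (-) for Hbb-bs, chr7:103813924-103814063 (-) for Hbb-bt and chrX:150547277-150547416 (+) for Alas2.
Hba-a2: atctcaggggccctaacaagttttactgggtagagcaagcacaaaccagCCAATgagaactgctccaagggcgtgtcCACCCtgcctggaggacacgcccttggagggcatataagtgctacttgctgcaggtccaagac
Hbb-bs: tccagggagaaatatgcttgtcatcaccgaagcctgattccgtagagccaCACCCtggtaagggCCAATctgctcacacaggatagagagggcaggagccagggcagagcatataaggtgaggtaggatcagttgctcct
Hbb-bt: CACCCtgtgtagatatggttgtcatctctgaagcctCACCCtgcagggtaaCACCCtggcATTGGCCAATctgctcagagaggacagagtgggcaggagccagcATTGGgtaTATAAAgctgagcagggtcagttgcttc
Alas2: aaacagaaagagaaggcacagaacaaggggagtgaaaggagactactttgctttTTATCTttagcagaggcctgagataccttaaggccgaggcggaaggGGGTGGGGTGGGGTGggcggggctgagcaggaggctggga

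The alpha copies could not be separated upstream: 247 of 247 compared bases of Hba-a1 and Hba-a2 were identical once shifted by 3 bases, so only Hba-a2 is shown. The beta copies were easier to tell apart, with 1 CACCC and 1 CCAAT match in the 250 bases of Hbb-bs and 3 of each in those of Hbb-bt. By the letters searched, Hbb-bt also held 1 TATA match and 0 GATA matches. Hbb-bs held 0 TATA matches and 1 GATA match, the latter upstream of the bases shown. The run CATATAA in the bases shown for Hbb-bs and Hba-a2 did not count as a TATA match. A lack of a match therefore does not mean that a TATA box is absent. Each alpha copy held 1 GATA, 2 CACCC and 1 CCAAT match, and Alas2 held 1 GATA, 3 CACCC and 1 TATA match. Of these, the GATA and 1 CACCC match of the alpha copies and the TATA match of Alas2, which is on the opposite strand, lie upstream of the bases shown. Such short motifs are common: of 32851 mouse promoters searched over the same length, 26.5% held a GATA match, 52.0% CACCC, 33.8% CCAAT and 20.9% TATA. The matches are a description of these letters only.

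The libraries held between 12856630 and 30576981 counts each. Levels are given as read counts set relative to the TMM-scaled library size (CPM), except that genes are compared with each other as FPKM, which also divides by gene length. Tespa1 itself was at 34.3 ± 1.62 CPM in Tespa1+/+ and 14.6 ± 0.634 CPM in Tespa1-/- LSKs (SD, n = 3 each), so its transcripts were lower but still counted. Of the LSK markers, 8 of 9 were downregulated, and Cd34, a progenitor surface marker, fell from 513 ± 3.51 to 300.0 ± 6.07 CPM. A gene was called when its fold exceeded 1.5 and its adjusted p was below 0.05. By this rule edgeR called 14.0% of 15332 genes higher and 19.2% lower in the Tespa1-/- libraries. Of the calls, 42.1% were higher, and 29.8% when libraries were scaled by their totals alone, which shifted the median log2 fold change of all genes by -0.10.

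After IR, transcripts of the 6 genes together amounted to 17.8, 18.8 and 17.3 CPM, taken here without TMM factors, in the Tespa1+/+ libraries and to 45.5, 44.0 and 41.2 CPM in the Tespa1-/- libraries. Hba-a1, Hba-a2, Hbb-bs and Slc4a1 were upregulated in Tespa1-/- LSKs, by 3.1-fold for Hbb-bs to 9.12-fold for Slc4a1. Hbb-bt, the most abundant of the 6 in Tespa1+/+ LSKs, rose by only 1.48-fold, below the fold asked of a call. Alas2 had too few counts for the filter on low values and was higher without it. In bulk RNA, more cells carrying these transcripts and more of them per cell cannot be told apart.

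Of the 6 genes, 5 passed the filter, and 4 of these 5 were called higher and 0 lower, against 14.0% and 19.2% of all genes tested. The share called higher was larger among short genes. It was 56.1% at 60 to 1240 bases of union exon, the range of the globins, for genes with a mean log2 CPM over 3. All 3 Tespa1-/- libraries lay above all 3 Tespa1+/+ libraries for 5 of the 5, which held for 34.5% of all genes tested. These counts do not cover the 6 genes evenly, because Hba-a2 and Slc4a1 reached the cutoff of the filter, 0.614 CPM, in 3 Tespa1-/- libraries and in 0 Tespa1+/+ libraries. Alas2 reached it in 2 Tespa1-/- libraries.

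**Figure D1:**
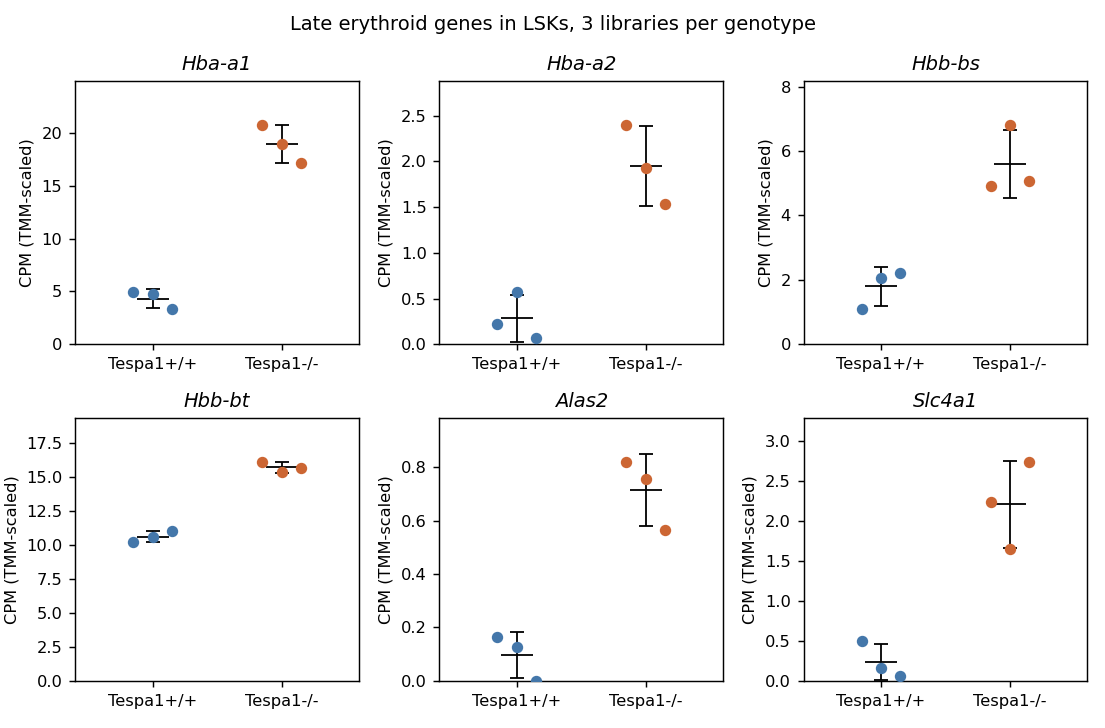
Level of each gene in each library, in TMM-scaled CPM on linear axes that start at 0, with the mean and SD of 3 libraries per genotype. The Tespa1-/- points lie above all Tespa1+/+ points in every panel, and the gap is narrowest relative to the level for Hbb-bt, from 11.0 to 15.3 CPM.

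The alpha chain genes were examined first. Hba-a1 (ENSMUSG00000069919, GRCm38 chromosome 11, 32283511 to 32284465, + strand) had counts of 90, 150 and 49 in the Tespa1+/+ and 354, 276 and 213 in the Tespa1-/- libraries. These correspond to 4.95, 4.74 and 3.3 CPM against 20.8, 19.0 and 17.2 CPM. The lowest Tespa1-/- library was thus well above the highest Tespa1+/+ library. Hba-a1 was upregulated 4.33-fold (log2 fold change 2.11 with an SE of 0.16; adjusted p by edgeR 2.6e-05).

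Hba-a2 (ENSMUSG00000069917, chromosome 11, 32296489 to 32297298, + strand), the downstream alpha copy, was counted far less often, with 4, 18 and 1 counts in the Tespa1+/+ and 41, 28 and 19 in the Tespa1-/- libraries. Its levels were 0.22, 0.569 and 0.0674 CPM against 2.4, 1.93 and 1.53 CPM. The Tespa1+/+ libraries differed widely among themselves, replicate 2 being the highest, but stayed below every Tespa1-/- library. Hba-a2 was upregulated 5.69-fold (log2 fold change 2.51, SE 0.47; adjusted p by edgeR 0.00273). This size rests largely on Tespa1+/+ replicate 2, without which the log2 fold change was 3.65, a 12.6-fold difference.

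Since the copies share most of their sequence, their counts were also summed. The alpha pair had 94, 168 and 50 counts in the Tespa1+/+ and 395, 304 and 232 in the Tespa1-/- libraries. The sum was upregulated 4.46-fold (log2 fold change 2.16, SE 0.17; adjusted p by edgeR 3.8e-05).

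The beta chain genes behaved less alike. Hbb-bs (ENSMUSG00000052305, chromosome 7, 103826534 to 103828096, - strand) had counts of 20, 65 and 33 in the Tespa1+/+ and 84, 99 and 63 in the Tespa1-/- libraries. The levels were 1.1, 2.06 and 2.22 CPM against 4.92, 6.81 and 5.07 CPM, with no overlap. Tespa1+/+ replicate 1, the highest of its group for Hba-a1, was the lowest for Hbb-bs. Hbb-bs was upregulated 3.1-fold (log2 fold change 1.63, SE 0.26; adjusted p by edgeR 0.00116).

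Hbb-bt (ENSMUSG00000073940, chromosome 7, 103812524 to 103813996, - strand), the other adult beta gene, had counts of 186, 334 and 164 in the Tespa1+/+ and 274, 223 and 194 in the Tespa1-/- libraries. Its levels of 10.2, 10.6 and 11.0 CPM against 16.1, 15.3 and 15.6 CPM were, relative to their mean, the tightest of the 6 genes within each genotype. The groups did not overlap, and the difference passed the adjusted p but not the fold of a call (1.48-fold, log2 fold change 0.56, SE 0.07; adjusted p by edgeR 4.3e-04). It lay close to that fold: without Tespa1+/+ replicate 3 it was 1.52-fold higher (edgeR adjusted p 0.00145) and without Tespa1-/- replicate 2 it was at a log2 fold change of 0.59 (edgeR adjusted p 0.00184), and both would be called. The beta pair summed to 206, 399 and 197 counts in the Tespa1+/+ and 358, 322 and 257 in the Tespa1-/- libraries. That sum was upregulated 1.72-fold (log2 fold change 0.78, SE 0.08; adjusted p by edgeR 1.5e-04).

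Alas2 (ENSMUSG00000025270, chromosome X, 150547375 to 150570638, + strand), the heme enzyme, had 3, 4 and 0 counts in the Tespa1+/+ and 14, 11 and 7 counts in the Tespa1-/- libraries. Its exons overlap those of Apex2 and Mir3620, and whether counting used the strand is not given in the sources used here, so its few counts are uncertain. The levels were 0.165, 0.126 and 0 CPM against 0.821, 0.757 and 0.564 CPM. The count of 0 in the third Tespa1+/+ library allows up to 3 counts, or 0.209 CPM without TMM factors, still below every Tespa1-/- library. Over the summed counts of 7 and 32, the ratio of shares was 6.27 with a 95% exact interval of 2.72 to 16.8, which covers counting error only. Without the filter, edgeR gave a log2 fold change of 2.67 (SE 0.57, adjusted p 0.00352), where 8.39% of 27297 genes with a count were called higher.

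Slc4a1 (ENSMUSG00000006574, chromosome 11, 102348824 to 102366203, - strand), the band 3 gene, had counts of 9, 5 and 1 in the Tespa1+/+ and 38, 24 and 34 in the Tespa1-/- libraries. The levels were 0.495, 0.158 and 0.0674 CPM against 2.23, 1.65 and 2.74 CPM. The difference was the largest of the 5 genes tested, at 9.12-fold (log2 fold change 3.19, SE 0.48; adjusted p by edgeR 8.7e-04). Tespa1+/+ replicate 1 held 9 of the 15 counts of its group, and without that library the log2 fold change was 4.03, a 16.3-fold difference.

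The order of the genes was then compared per length, as FPKM on the union exon length and without TMM factors. In Tespa1+/+ LSKs, Hbb-bt stood first at 15.6 ± 0.596 FPKM, followed by Hba-a1 at 5.52 ± 1.15 and Hbb-bs at 2.42 ± 0.815 (SD, n = 3). These 3 did not overlap with each other. Hba-a2 at 0.443 ± 0.399, Slc4a1 at 0.0509 ± 0.0478 and Alas2 at 0.0419 ± 0.0372 FPKM overlapped with their neighbours. The median gene tested was at 6.27 FPKM in this group, and 72.9% of genes tested lay below Hbb-bt.

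In Tespa1-/- LSKs the order changed at the top. Hba-a1 reached 22.6 ± 2.12 FPKM and overlapped with Hbb-bt at 21.5 ± 0.472. Below them came Hbb-bs at 7.05 ± 1.33, Hba-a2 at 2.83 ± 0.631, Slc4a1 at 0.435 ± 0.107 and Alas2 at 0.287 ± 0.0537 FPKM, of which only the last 2 overlapped. Here 80.1% of genes tested lay below Hba-a1, and the median was 5.56 FPKM. The top of this order depends on the length used: the deposited FPKM divides Hba-a1 by 1193 bases, the summed length of its transcripts, and put it at 15.4 ± 1.45 FPKM, below Hbb-bt at 21.5.

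The balance between chains and copies followed from these values and was compared within each library, where the library total cancels. Counts of both alpha copies were 31.3%, 29.6% and 20.2% of all adult globin counts in the Tespa1+/+ libraries and 52.5%, 48.6% and 47.4% in the Tespa1-/- libraries. All 3 Tespa1-/- libraries lay above all Tespa1+/+ libraries, and the alpha to beta ratio was 2.68-fold higher (exact two-sided permutation test p = 0.1, the smallest that 3 against 3 libraries allow; adjusted p = 0.15 over 3 ratios). Hbb-bs made up 9.71%, 16.3% and 16.8% of beta counts in the Tespa1+/+ and 23.5%, 30.7% and 24.5% in the Tespa1-/- libraries. The Hbb-bs to Hbb-bt ratio was 2.19-fold higher, with an exact permutation p of 0.1 and the same adjusted p of 0.15.

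The alpha copies gave no such separation. Hba-a2 made up 4.26%, 10.7% and 2.0% of alpha counts in the Tespa1+/+ and 10.4%, 9.21% and 8.19% in the Tespa1-/- libraries, so the groups overlapped. The mean log2 ratio of Hba-a2 to Hba-a1 was higher by 1.09 in Tespa1-/- LSKs (exact permutation p = 0.4, adjusted 0.4), but this difference was 0.48 to 1.75 when single libraries were left out. With 1 Hba-a2 count in Tespa1+/+ replicate 3, the Wilson interval of its share ran from 0.354% to 10.5%. The overlap came from Tespa1+/+ replicate 2, without which the difference was 1.75 (exact permutation p = 0.1), and from 3 against 3 libraries no p below 0.1 can be had at any depth.

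**Figure D2:**
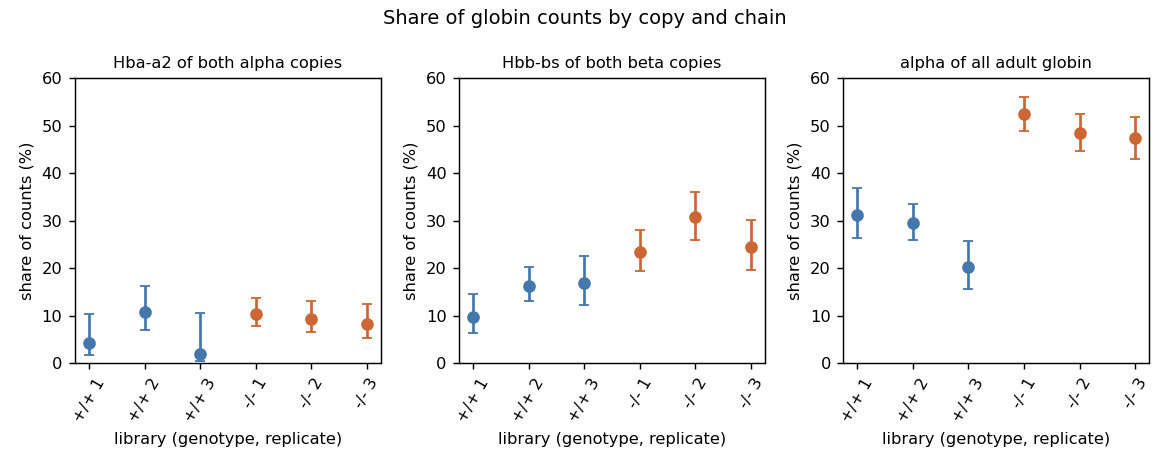
Share of globin counts (percent) in each library, for Hba-a2 within the alpha copies, Hbb-bs within the beta copies and the alpha copies within all adult globin; bars are 95% Wilson intervals for counting error. The genotypes separate in the middle and right panels, where the alpha share is 20.2% to 31.3% against 47.4% to 52.5%, and overlap in the left panel.

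Gene length moved with the fold changes across the whole table and is therefore given beside the globin values. Among genes with a mean log2 CPM over 3, those of the shortest decile, from 60 to 1240 bases of union exon, had a median log2 fold change of 0.64, and 56.1% of them were called higher. The 4 globin genes, at 667 to 812 bases, fall into this range. Hbb-bt at 0.56 lay below this median, whereas Hba-a1, Hba-a2 and Hbb-bs lay above it. Slc4a1, at 4891 bases, falls into a length range with a median of -0.02, and Alas2, at 2403 bases, into one with a median of 0.30. Hba-a2, Hbb-bs, Alas2 and Slc4a1 are themselves below a mean log2 CPM of 3, so these medians come from genes more abundant than they are.

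**Figure D3:**
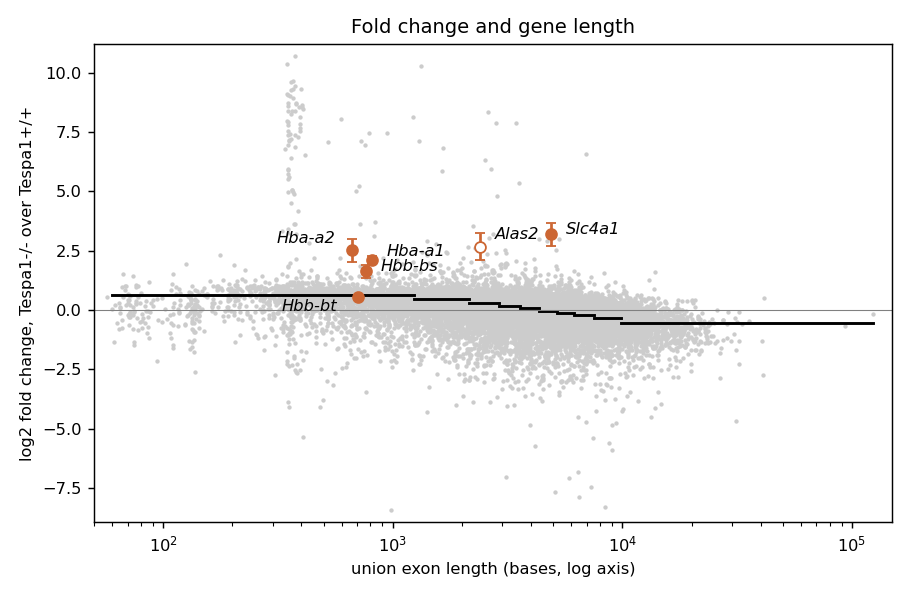
Log2 fold change (Tespa1-/- over Tespa1+/+) against union exon length (bases, log axis) for the genes tested (grey), with the median of each length decile of genes with a mean log2 CPM over 3 (black lines) and the 6 genes with their SE (orange; open symbol, Alas2 from the fit without the filter). Hbb-bt lies close to the median of the shortest genes, 0.64, and the other 5 lie above the line at their length. Of the 6 genes, only Hba-a1 and Hbb-bt exceed that mean log2 CPM.

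When the length trend of each library was entered as an offset, 9.96% of genes were called higher. The log2 fold changes became 1.74 for Hba-a1 (SE 0.15; adjusted p by edgeR 9.1e-05), 2.12 for Hba-a2 (adjusted p 0.00741), 1.26 for Hbb-bs (adjusted p 0.00546) and 3.35 for Slc4a1 (adjusted p 8.3e-04), and these 4 stayed called. Hbb-bt fell to 0.18 (SE 0.07; adjusted p by edgeR 0.0714) and no longer passed. Alas2, fitted with the offset and without the filter, was at 2.56 (SE 0.57; adjusted p by edgeR 0.00606).

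**Figure D4:**
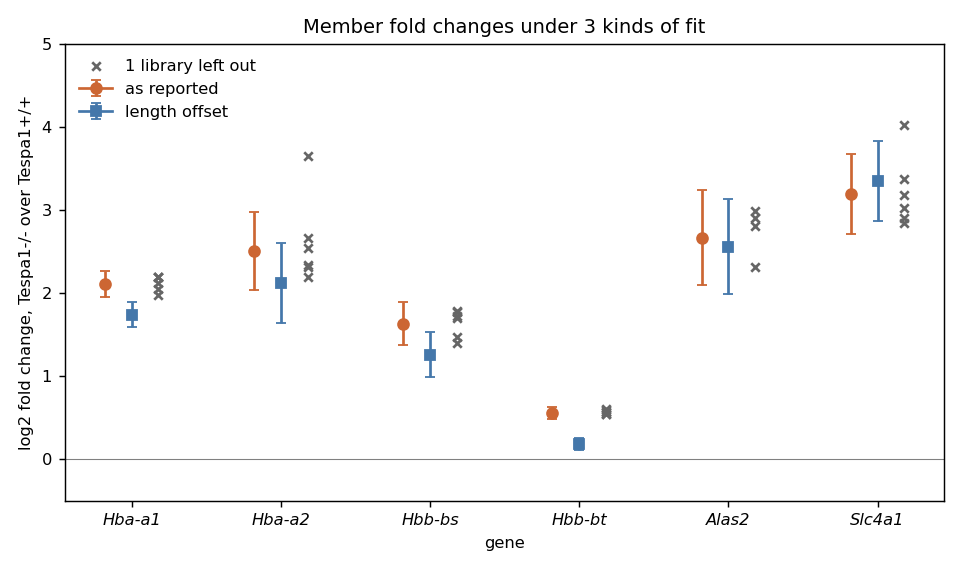
Log2 fold change of each gene with its SE as reported (circles; Alas2 without the filter) and with the length offset (squares), and in the fits that left out 1 library each (crosses). Hbb-bt falls from 0.56 to 0.18 with the offset, and single libraries move Hba-a2 up to 3.65 and Slc4a1 up to 4.03.

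Few other erythroid genes rose with the 6. The embryonic and minor globins Hba-x, Hbq1a, Hbb-bh1, Hbb-bh2 and Hbb-y had a count of 0 in all libraries, and Hbq1b had 1 count in 1 Tespa1-/- library. Of 57 further erythroid genes tested in 4 lists, 3 were called higher, 22 lower and 32 neither, with a median log2 fold change of -0.22 against 0 over all genes tested. Over all genes, 14.0% were called higher and 19.2% lower, and the counts of each list below are to be read against these shares. After the length offset these counts were 3 and 21, with a median of -0.15. Ahsp, the alpha hemoglobin chaperone, was not analysed here.

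Of the red cell membrane genes, which share the cell surface with band 3, 8 of 13 tested were downregulated and 0 upregulated, with a median of -0.85. Aqp1, the water channel, fell to a log2 fold change of -0.83 (edgeR adjusted p 1.7e-04). Epb41, which encodes protein 4.1, and Gypc, glycophorin C, were not called, at -0.22 and -0.03, and Epb41 was at 0.50 with the length offset.

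Of the heme and iron genes, 3 of 16 were upregulated and 0 downregulated, with a median of 0.34, which is a share near the 14.0% of all genes called higher. Tfrc, the transferrin receptor through which erythroid precursors and dividing cells take up iron, rose from 197 ± 13.5 to 346 ± 13.6 CPM (log2 fold change 0.81, SE 0.05; adjusted p by edgeR 1.8e-05). Ftl1, the ferritin light chain, was upregulated (log2 fold change 0.70, edgeR adjusted p 5.8e-04) but fell below the fold of a call with the length offset, at 0.43, where Alas1, the non-erythroid counterpart of Alas2, was called in its place at 0.82 (named after its value was seen). The heavy chain Fth1 was at 0.12 (edgeR adjusted p 0.283). The third call was Glrx5, a glutaredoxin of iron-sulfur cluster assembly, at 0.65, named after its value was seen.

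Among other late erythroid genes, 5 of 12 were downregulated and 0 upregulated, with a median of -0.42. Trim58, an E3 ligase of late erythroblasts, fell the most (log2 fold change -1.90, edgeR adjusted p 4.4e-05), and Car2, carbonic anhydrase 2, fell from 84.2 ± 3.15 to 34.0 ± 3.21 CPM (log2 fold change -1.31, edgeR adjusted p 7.9e-06). The antioxidant genes Prdx2 and Cat were at 0.27 and -0.39 and were not called.

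No regulator of the program was called higher. Of 16 early erythroid regulators, 9 were downregulated and 0 upregulated, with a median of -0.65. Gata1 was at 14.7, 12.7 and 14.3 CPM in the Tespa1+/+ and 8.74, 7.43 and 7.01 CPM in the Tespa1-/- libraries, a fall of the log2 level by 0.84 (SE 0.11; adjusted p by edgeR 5.4e-04). Klf1 fell from 6.26 ± 0.283 to 3.17 ± 0.127 CPM (log2 fold change -0.98, edgeR adjusted p 1.6e-04) and Epor, the erythropoietin receptor, was at -0.90 (edgeR adjusted p 0.00119). Sox6 fell the most, at -1.59, while Lmo2, Myb and Ldb1 were at -0.10, -0.19 and -0.11 and were not called. With the length offset Myb was at 0.26 and Ldb1 at 0.03, the opposite sign.

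**Figure D5:**
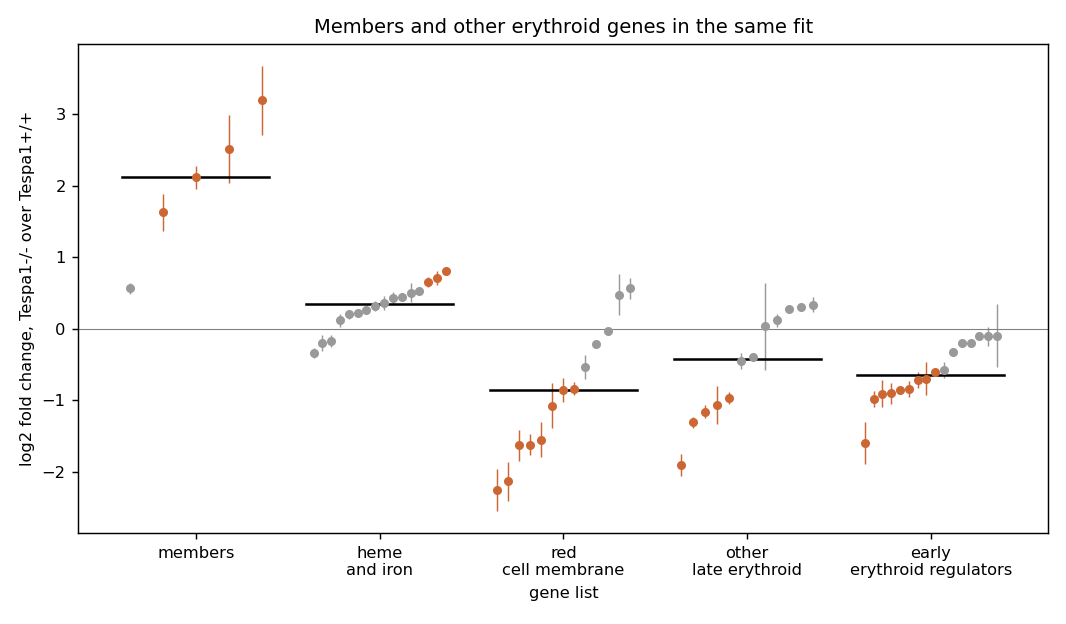
Log2 fold change with SE of the 5 genes of interest past the filter (labelled members) and of the genes tested in 4 other erythroid lists, with called genes in orange, others in grey and the list median as a black line. The medians are 2.11, 0.34, -0.85, -0.42 and -0.65 from left to right.

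Markers of other cell types moved in the same libraries, and their part in the globin result was not tested. Neutrophil markers were upregulated in 9 of 9 cases, and the summed level of the 10 listed genes was 21.1 to 23.8 CPM in Tespa1+/+ and 474 to 501 CPM in Tespa1-/- LSKs. S100a9, a granulocyte calcium-binding protein gene, rose from 0.904 ± 0.258 to 114 ± 4.24 CPM (edgeR adjusted p 2.6e-07), and Ly6g was at 0 counts in all Tespa1+/+ libraries. The summed level of the 9 LSK markers was 1180 to 1210 CPM in Tespa1+/+ and 639 to 658 CPM in Tespa1-/- LSKs. Megakaryocyte genes, close to the erythroid branch, were downregulated in 6 of 9 cases, with Itga2b, which encodes CD41, at a log2 fold change of -0.28 and not called. Of macrophage markers, 1 of 5 tested was downregulated, namely Csf1r at -0.65; with the length offset Csf1r was at -0.40 and lost its call, and Slc40a1, the iron exporter (named after its value was seen), was called higher at 0.87, so the tally became 1 higher and 0 lower. Of B cell markers 1 of 7 was higher (Jchain, 1.18) and 4 were lower, and 3 of 3 T cell markers were lower, Lck being at -0.87.

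The genes whose levels followed each of the 5 tested genes most closely were found by the root mean squared difference of centred log2 CPM over the 6 libraries, among 14009 genes. For Hba-a1 they were Ifitm6 (0.129), Igkv4-55 and Clu, and for Slc4a1 they were Itgb2l (0.185), Epx and Lcn2. For Hba-a2 they were Cfb, Epx and Hba-a1 itself (0.497), and for Hbb-bs they were 4732496C06Rik, Mcemp1 and Fgr. Hbb-bt had far closer neighbours, Sapcd2 (0.022), Birc5 and Naa10, all with log2 fold changes between 0.55 and 0.57. Apart from Hba-a1 in the list of Hba-a2, none of these nearest genes was a globin or in the erythroid lists used here. Lcn2 is in the neutrophil list above. This likeness is a description over 6 libraries of 2 genotypes, with no test.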

How the data were processed

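Per the labels, poly-A RNA was made into stranded paired-end libraries for Illumina sequencing. The submitters' processing notes name CASAVA 1.8, HISAT2, StringTie, edgeR and GRCm38; their other settings are not given in the sources used here. The authors deposited raw whole-number counts and FPKM values (counts scaled by gene length and by the library total) for each gene, and no normalised counts. Across genes, the length implied by count and FPKM matched the summed length of all annotated transcripts for 51.0% and the union exon length for 44.1% (GENCODE M21, tolerance 0.5%).

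Groups and replicate numbers came from the sample titles. The filter filterByExpr and TMM scaling were applied, and the quasi-likelihood F-test of edgeR 4.0.16 (R 4.3.3) was run on all 6 libraries without covariates, with Benjamini-Hochberg adjustment over 15332 genes. Calls needed a fold over 1.5 at an adjusted p below 0.05. Fold changes are Tespa1-/- over Tespa1+/+. Alas2 was fitted without the filter. The length offset was a loess (span 0.5) of the deviation of each library's log2 CPM on union exon length. Shares have 95% Wilson intervals. Sequences came from GENCODE M21 and RefSeq. Ratios were compared by exact permutation in Python 3.11.15 with SciPy 1.17.1.

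Alternatives were RLE factors, total counts, 2 other filters, DESeq2 1.42.0, leaving out each library, a replicate block, limma 3.58.1 (trend) on log2(FPKM + 1) and log2(FPKM + 0.1), 2 length definitions and globins left out of the totals. Summing the globin copies and combining the length offset with no filter were added after seeing the data. The 6 genes, the 11 other lists and the rule for named genes (the genes of interest, the other globins, in each erythroid list the largest called rise and fall and the 3 highest FPKM, 5 fixed erythroid genes, the highest gene of each other list and the 3 nearest patterns) were chosen with earlier results of these data known. Of the genes this rule names, 2 are not reported here. In simulated data, edgeR recovered 99% of 200 changed genes among 15257 with 5 false calls. When a length trend was simulated it made 1892 false calls among 15207, and 1 among 15190 with the offset. That trend was set as a smooth function of the same union exon length that the offset uses. Its removal was therefore built in and does not test the offset on the trend of the real data. The changed genes were drawn only from genes with a higher mean level than Hba-a2, Alas2 and Slc4a1, with the same spread set for all genes. The recovery therefore does not apply to those low-count genes.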

Additional observations from a re-analysis of the deposited data

How the results depend on the processing

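Hba-a1, Hba-a2, Hbb-bs, Alas2 and Slc4a1 kept their direction and an adjusted p under 0.05 in each alternative for which they could be fitted. Hba-a2, Alas2 and Slc4a1 reached the cutoff of the filter in Tespa1-/- libraries only. Whether a filtered fit kept them therefore depended on the group where they were high, and their agreement across such fits is not separate support. Hbb-bt was at 0.18 with the union exon length offset, both with the filter (edgeR adjusted p 0.0714) and without it (edgeR adjusted p 0.156), and at 0.21 (edgeR adjusted p 0.043) with the length implied by FPKM. Scaling by totals alone gave 2.01 for Hba-a1 and 0.46 for Hbb-bt, with 1493 genes higher and 3512 lower in place of 2148 and 2951. On limma-trend with log2(FPKM + 1), where fewer genes are tested and low ones shrink, 1070 genes were higher and 1626 lower, and Hba-a2 was at 1.14; with 0.1 in place of 1, 1365 were higher. Leaving out each library gave 1.98 to 2.2 for Hba-a1, 2.19 to 3.65 for Hba-a2, 1.4 to 1.79 for Hbb-bs, 0.54 to 0.6 for Hbb-bt (past the fold of a call without Tespa1+/+ replicate 3 or Tespa1-/- replicate 2), 2.85 to 4.03 for Slc4a1 and, in the 4 such fits whose filter kept it, 2.31 to 2.99 for Alas2. The cause of these shifts was not tested.

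The replicate numbers did not pair the libraries: the correlations of deviations were -0.073, -0.078 and 0.014, and no library correlated best with its own number. With the replicate number as a block, Hba-a1 was at 2.13, Hba-a2 at 2.62, Hbb-bs at 1.68, Hbb-bt at 0.56 and Slc4a1 at 3.13, with 2101 genes higher and 2871 lower. None of these 5 genes changed its call, and Alas2 was not fitted with the block.

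At least 10 counts in every library left no value for Hba-a2, Alas2 and Slc4a1, and the FPKM minimum none for Alas2 and Slc4a1. With 1 to 18 counts per Tespa1+/+ library for Hba-a2 and 0 to 9 for Alas2 and Slc4a1, depth limits the precision of these folds. The intervals of summed counts were 3.28 to 8.7 for Hba-a2 and 5.06 to 16.3 for Slc4a1, for counting error only.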
